A study of Mus musculus with 147 samples.

Results

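Helq encodes a DNA helicase, and 9 genes that work beside it in DNA repair were followed with it through the development of mouse male germ cells. The 10 genes, Helq, Rad51c, Rad51d, Xrcc2, Xrcc3, Polq, Fanca, Fancd2, Fancm and Atr, were taken by name from the 31053 genes of the deposited table of UMI counts (a UMI marks 1 captured RNA molecule). Single cells had been profiled from their 3′ RNA ends. The mice carried the BVSC reporters, Blimp1-mVenus and Stella-ECFP, and the wild-type mice came from C57BL/6 mothers and BVSC fathers. Wild-type germ cells ran from E8.5 to adult, with embryos pooled before birth and 1 animal per replicate after it. Up to E10.5 they were sorted from whole embryos as BVSC positive, and from E11.5 to E18.5 from gonads as BVSC positive, with reporter-negative gonadal cells kept as the Negative gate. From E14.5 the sort rested on Stella-ECFP alone, as the Blimp1-mVenus signal fades. Male embryos were picked by PCR for the Sry gene at E10.5 and E11.5. No such step is given before E10.5, and part of the E10.5 cells carry no sex in their names. The pools up to E10.5 may therefore hold both sexes. After birth testis cells were picked by their shape. At PND30 the cells of replicate 1 and part of those of replicate 2 are named as sorted by DNA content into 1N, 2N and 4N cells. The PND30 germ cell pool of replicate 2 also holds cells outside these groups.

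Helq null cells (Helq-/-), also carrying BVSC and sorted in the same way, were available at E11.5 to E15.5 and E18.5. The null line descends from 1 embryonic stem cell clone, made with Cas9 and 1 guide RNA. It carries a small deletion in the first exon on both alleles. Chimeric mice made with these cells were crossed with each other to give null mice, a cross unlike that of the wild type. Clone, cross and genotype therefore cannot be told apart. The unit compared was the pool, meaning the summed UMIs of all cells of 1 time-point, replicate and group, written as CPM, the UMIs of a gene per 1000000 UMIs of the pool. There were 53 wild-type germ cell pools with 8458 cells. The genotype comparison used 9 null pools with 766 cells and 12 wild-type pools with 998 cells. Nothing in the sources used here gives the number of litters behind a replicate, so p-values measure the spread between these pools.

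HELQ unwinds DNA at stalled replication forks and at breaks, and binds a complex that holds RAD51C, RAD51D and XRCC2. These proteins and XRCC3 are related to each other and act in homologous recombination. In the Fanconi anaemia pathway, which repairs crosslinks between DNA strands, FANCM brings the core complex to the DNA, FANCA is a subunit of that complex, and FANCD2 is the protein it marks with ubiquitin. POLQ joins broken ends through short matching stretches, and ATR is the kinase that signals stalled replication and also acts on the unpaired sex chromosomes at meiosis. Germ cells lean on these pathways both while they divide in the embryo and when they break and repair their own DNA at meiosis, and loss of Helq or of Fanconi genes in mice is known to leave too few germ cells.

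The site of the mutation is shown first because it sets what the Helq counts can say. The guide matched 1 gene in the GENCODE M21 transcripts, at chr5:100798315-100798334 of mm10 (GRCm38), minus strand. The match lay in exon 1 of 18 of Helq, inside the coding sequence, and began in codon 47. In the stretch of exon below, the capitals mark the guide target and the 3 bases of the PAM that follow it.
Helq exon 1: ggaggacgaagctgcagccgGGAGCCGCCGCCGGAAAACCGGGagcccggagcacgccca
The guide ended 3405 bases before the 3′ end of the transcript of 3689 bases. The UMIs counted here come from that 3′ end, so the Helq count does not check the deletion.

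Promoters were read for 7 of the 10 genes from RefSeq (GRCm38.p6), as the 250 bases before the transcript start. Helq and Fancm, the pair whose levels ran most alike among the 10, are shown over their last 100 bases, at chr5:100798601-100798700 (minus strand) and chr12:65075503-65075602 (plus strand). Capitals mark TTCCCGC, a form of the E2F site, and CCAAT, each searched on both strands.
Helq: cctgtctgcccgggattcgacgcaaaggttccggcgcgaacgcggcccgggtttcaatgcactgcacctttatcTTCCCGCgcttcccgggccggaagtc
Fancm: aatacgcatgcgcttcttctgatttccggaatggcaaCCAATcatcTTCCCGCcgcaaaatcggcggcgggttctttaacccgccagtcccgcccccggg
TTCCCGC stood 26 bases before the Helq start and 54 bases before the Fancm start. It was found in 3.82% of 32851 promoters of the same length, and CCAAT in 33.8%. Rad51c held TGACGTCA, the cyclic AMP response element, 45 bases before its start, as 1.55% of promoters did. RefSeq lists 2 Rad51c promoters. This one lies inside the gene as GENCODE annotates it, and the other (chr11:87404955-87405204), which ends at the annotated start, held none of the 3 motifs. The capitals in the last 100 bases of the first, at chr11:87404507-87404606 (minus strand), mark that element.
Rad51c: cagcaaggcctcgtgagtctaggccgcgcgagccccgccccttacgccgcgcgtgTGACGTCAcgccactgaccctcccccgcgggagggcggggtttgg
The motifs were chosen after the sequences had been read, and a match is a description of letters only.

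The genes lie on 7 chromosomes of mm10. Helq runs from 100762145 to 100798598 on chromosome 5 (minus strand), and its start stands 29 bp from the start of Mrps18c on the opposite strand. Xrcc3, Fanca, Fancd2, Fancm and Atr overlap other annotated genes, mostly on the opposite strand. Whether reads were counted by strand was not given in the sources used here, so for these 5 genes reads of a partner cannot be told apart.

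Depth and purity were as follows. Germ cell pools held 15 to 571 cells and 7424539 to 197478836 UMIs, so that even Fanca, the sparsest gene, rested on 19 UMIs or more per pool. The 12 germ markers sat at 1165 CPM or more in each pool. At E8.5 the marker rule, given under the processing, classed 0 of 48 BVSC cells of replicate 1 as germ cells, so it gave no pool. The rule kept 86 of 95 cells of replicate 2 and 15 of 48 of replicate 3. Over the E8.5 to E10.5 pools Ttr, a marker on the list for embryonic endoderm and mesoderm, ran from 0.179 to 390 CPM. Adult replicate 1 stood apart from the other PND30 to adult pools: its Sertoli markers summed to 94.7 CPM against 5.37 to 11.4 CPM, its Leydig markers to 285 CPM against 2.57 to 13.2 CPM, and its 8 cell cycle genes to 1449 CPM against 775 to 915 CPM. From E17.5 to PND0 somatic markers summed higher than at E14.5 to E16.5 without overlap, at 65.8 to 105.3 against 10.4 to 49.2 CPM for the Sertoli list, 151.6 to 200.1 against 5.26 to 114.5 CPM for the interstitial and peritubular list, and 107.4 to 269 against 7.24 to 91.1 CPM for the erythroid list. The 12 germ markers summed to 2188 to 2719 against 3196 to 4227 CPM. The endothelial list was also higher there, through Tie1 (97.1 to 169 against at most 45.5 CPM), which at E17.5 and E18.5 was itself higher in BVSC pools (77.7 to 162 CPM) than in Negative pools (4.78 to 14.03 CPM). In summed pools, fewer cells of a type and less RNA per cell cannot be told apart. A UMI marks a 3′ end and not a length, so levels are compared within a gene and not between genes.

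Helq was detected in all 53 pools, at 7.42 to 44.7 CPM. Its mean CPM was highest at PND10 to PND14 (33.4 ± 7.08, SD, n = 6 pools) and at E8.5 to E10.5 (30.9 ± 5.14, n = 7). It then ran through 24.6 ± 2.27 at E11.5 to E13.5 (n = 6), 24.6 ± 3.79 at PND1 to PND3 (n = 6), 21.3 ± 4.13 at E14.5 to E16.5 (n = 6) and 20.3 ± 2.64 at PND4 to PND8 (n = 10). The lowest means were 18.95 ± 4.08 at E17.5 to PND0 and 18.7 ± 12.49 at PND30 to adult (n = 6 each). Neighbours in this order overlapped in their pools throughout. At PND30 the pools held 7.42 and 13.4 CPM, at PND35 15.4 and 18.7 CPM, and in the adult 43.1 and 14.2 CPM, the higher value being adult replicate 1.

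Among the recombination genes Rad51c, Rad51d, Xrcc2 and Xrcc3, the first had its highest values around mitotic arrest. Its pools held 87.04 and 85.02 CPM at E14.5, 169 and 118.1 at E15.5, 212 and 249 at E16.5, 199 and 170 at E17.5, and 82.5 and 87.9 at PND1. The E16.5 pools were the highest of all 53, and the PND30 pools, at 34.1 and 39.3 CPM, were near the lowest. Xrcc2 took the opposite course. It held 23.3 and 27.4 CPM at E14.5, 15.8 and 16.6 at E16.5, 3.50 and 10.7 at E17.5, 8.83 and 9.70 at PND0, and 19.9 and 24.6 at PND3, and reached 49.8 and 50.7 at PND35. The E17.5 to PND0 pools (3.50 to 10.7 CPM) did not overlap those of the stages on either side (15.8 to 27.4 and 13.4 to 24.6 CPM). Rad51d ranged from 7.38 to 34.8 CPM, with its lowest stage median (9.97 CPM) at E14.5 to E16.5 and its highest (27.7 CPM) at PND10 to PND14. Xrcc3, the partner of RAD51C in another complex, ranged from 8.58 CPM at PND30 to 47.9 CPM in E17.5 replicate 1, a pool in which 47 of 72 BVSC cells had been classed as germ cells.

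In the Fanconi group, Fancd2 had its highest values before birth and its lowest around birth. Its pools held 36.2 and 24.5 CPM at E13.5, 55.5 and 50.6 at E14.5, 86.8 and 73.01 at E15.5, 45.1 and 63.1 at E16.5, 29.8 and 23.6 at E17.5, 9.27 and 19.9 at E18.5, and 9.21 and 13.7 at PND0. The E15.5 pair was above every other pool, and from PND3 the gene stayed between 20.8 and 42.2 CPM. Fanca held a median of 15.4 CPM at PND10 to PND14 (range 9.69 to 18.7). At PND30 it held 1.15 and 2.21 CPM, at PND35 1.98 and 2.28, and in the adult 14.6 (replicate 1) and 1.64 (replicate 2). Apart from adult replicate 1 the last stage did not overlap the stage before it. Fancm reached its highest value between E8.5 and E11.5 (35.4 to 65.4 CPM over 9 pools). The PND10 to PND14 pools, at 32.07 to 47.3 CPM, overlapped that range. It was lowest at PND30 (5.34 and 7.32 CPM), with 10.4 and 12.2 CPM at PND35 and 35.2 and 11.2 CPM in the adult.

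Polq had its highest stage mean at PND10 to PND14, and Atr its highest time-point means from PND12 on. Polq, at 4.55 to 9.29 CPM from E11.5 to E13.5, held 15.8 to 25.5 CPM from PND10 to PND14, and then 4.17 and 9.14 CPM at PND30. Atr held 58.03 and 88.7 CPM at E14.5, 49.5 and 123.8 at E17.5, 76.7 and 88.9 at E18.5, 37.8 and 45.3 at PND4, 49.5 and 75.4 at PND10, 113.1 and 157 at PND12, 98.4 and 184 at PND14, and 191 and 154 at PND35. The pools of E14.5, E15.5 and E18.5 (58.03 to 88.9 CPM) and the lowest of the PND12 and PND14 pools lay above all PND4 to PND8 pools (37.8 to 57.3 CPM). The E16.5 pools (53.9 and 56.7 CPM) and the lower E17.5 pool (49.5 CPM) lay within the PND4 to PND8 range.

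**Figure D1:**
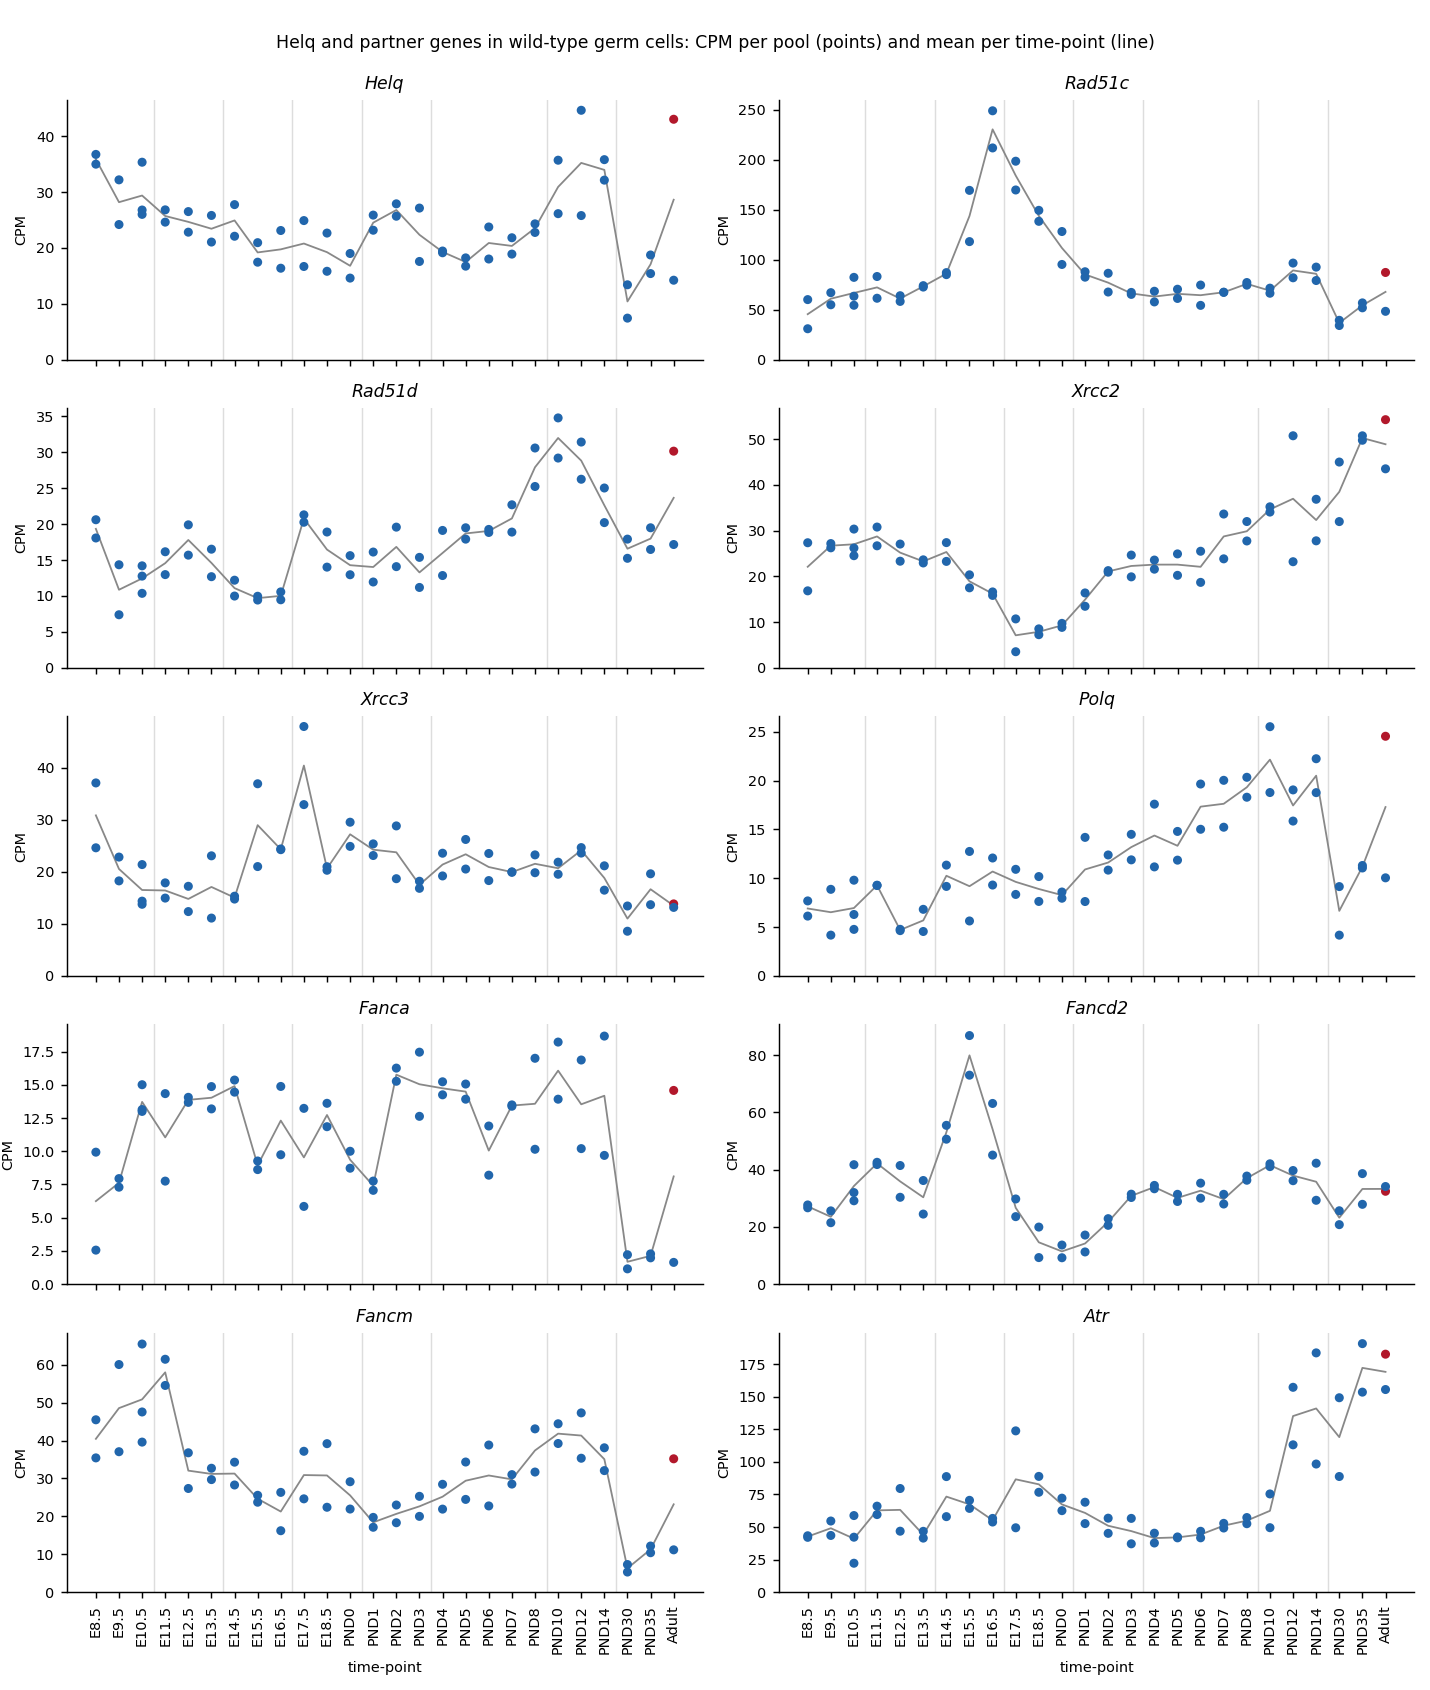
CPM (y axis, linear, from 0) of the 10 genes in the 53 wild-type germ cell pools by time-point (x axis). Each point is a pool, the line joins the means of time-points, grey verticals part the 8 stages, and adult replicate 1 is red. Rad51c peaks at E16.5 (212 and 249 CPM) and Fancd2 at E15.5 (86.8 and 73.01 CPM), and Xrcc2 dips at E17.5 to PND0. Adult replicate 1 sits above the other late pools for Helq, Rad51c, Rad51d, Xrcc2, Polq, Fanca and Fancm.

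The 8 stages were compared in sequence with edgeR's quasi-likelihood test over 24304 genes (Benjamini-Hochberg adjusted p under 0.05), and a fold change is printed where a gene passed and moved at least 2-fold. Each stage had a single mean, and its pools of all time-points served as replicates, so change within a stage counted as spread. From E8.5-E10.5 to E11.5-E13.5, 0 of the 10 genes passed, against 13.2% of all genes, and 0 of the 10 against 26.5% at an unadjusted p under 0.05. Into E14.5-E16.5, 5 passed (Rad51c higher, Helq, Rad51d, Xrcc2 and Fancm lower), at a background of 49.1% in either direction and 16.4% falling, and none of these changes reached 2-fold. The sort changed at the same boundary, so its part and that of age cannot be told apart here. Into E17.5-PND0, 3 passed and all fell (background 27%, or 17.8% falling). Xrcc2 fell by 1.81 on the log2 scale (SE 0.23, edgeR adjusted p = 9.47e-08) and Fancd2 fell by 2.28 (SE 0.25, edgeR adjusted p = 5.15e-09), while Helq fell less than 2-fold. The Sertoli, interstitial and erythroid sums were higher and the germ sum lower after the same boundary, as given above, and their part in these results was not tested.

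Into PND1-PND3, 4 of the 10 genes passed (background 20.6%, or 13.8% rising): Xrcc2 rose by 1.53 on the log2 scale (SE 0.23, edgeR adjusted p = 3.57e-06), Helq and Fancd2 rose and Rad51c fell by less than 2-fold. Into PND4-PND8, Rad51d, Xrcc2, Fancd2 and Fancm rose, 4 of 10 at a background of 19.5%, or 6.25% rising. Into PND10-PND14, 2 passed and both rose (background 14.9%, or 11.1% rising), with Atr up by 1.31 (SE 0.20, edgeR adjusted p = 5.94e-06) and Helq up by less than 2-fold. Into PND30-adult, 5 passed at a background of 63.9%, or 30.2% falling. Fanca fell by 1.66 (SE 0.40, edgeR adjusted p = 0.000416) and Fancm fell by 1.28 (SE 0.27, edgeR adjusted p = 6.82e-05), Helq fell by less than 2-fold, and Xrcc2 and Atr rose by less than 2-fold. Without adult replicate 1, Fanca fell by 2.60 and Fancm fell by 1.72.

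Replicates and library names bore on these values. Without the pools numbered replicate 2, the changes of Atr into PND10-PND14 (0.80, edgeR adjusted p = 0.479), and of Fanca (-1.20, edgeR adjusted p = 0.148) and Fancm (-0.97, edgeR adjusted p = 0.0707) into PND30-adult, kept their direction and did not pass. Most stages held pools from libraries of several names, and 2 fits that use the names were chosen after seeing the data. With the start of the name as a covariate, 21 of the 23 calls on the 10 genes passed in the same direction, among them the 6 changes of at least 2-fold (Fanca -1.56, Fancm -1.16, Atr 1.32). Within pools of the most common name, 13 of the 23 passed, the same 6 among them. There PND10-PND14 was left with 1 pool (PND14 replicate 2), assumed to vary like the other stages, and PND30-adult with the 2 pools of PND30. Atr rose by 2.50 into PND10-PND14, Fanca fell by 2.30 and Fancm fell by 2.11 into PND30-adult. The smaller rises of Xrcc2 and Atr into PND30-adult did not pass in that fit (Xrcc2 0.30, edgeR adjusted p = 0.733, and Atr with the opposite sign, -0.39, edgeR adjusted p = 0.51).

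The scaling of pools bears on these directions. CPM values were not scaled by TMM, so they can differ from the tested fold changes. Into E17.5-PND0 Helq went from a mean of 21.3 to 18.95 CPM, with a tested log2 fold change of -0.65. Into E14.5-E16.5 Atr went from a mean of 56.7 to 65.4 CPM, with a tested log2 fold change of -0.13 that did not pass. With DESeq2 size factors in place of TMM, the median log2 fold change over all genes moved from 0.52 to 0.81 into E14.5-E16.5, from 0.23 to 0.53 into E17.5-PND0, from -0.13 to -0.39 into PND1-PND3, from -0.16 to -0.33 into PND4-PND8 and from 0.09 to 0.58 into PND30-adult. Of the calls, 34.2% were higher with TMM and 57.3% with size factors into E17.5-PND0, 66.8% and 45.4% into PND1-PND3, 32.1% and 19% into PND4-PND8, and 52.8% and 63.7% into PND30-adult. The 6 changes of at least 2-fold given above passed in the same direction with both, and the fold changes of the 10 genes moved by at most 0.51. Of all 23 calls on the 10 genes, 16 passed in the same direction with size factors and 7 did not pass. Helq accounted for 4 of these 7: its changes into E14.5-E16.5, E17.5-PND0, PND1-PND3 and PND30-adult had edgeR adjusted p-values of 0.115, 0.289, 0.149 and 0.416 with size factors, and only its rise into PND10-PND14 passed with both.

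A list of 43 further genes of the Fanconi, recombination and ATR pathways moved with the stages too, and more often than the background around birth. Into E17.5-PND0, 24 of the 43 fell and 1 rose, or 58.1% called against 27% of all genes, with a median log2 fold change of -0.70 against 0.23 over all genes. Large changes among them were those of Rad51b (-1.58) and of Brca1, which acts in homologous recombination (-1.39). Into PND1-PND3, 15 rose and 2 fell (39.5%, median 0.49 against -0.13), among them the cell cycle kinase Wee1 (1.77) and Fancf (1.69). Into PND4-PND8, 12 rose and 1 fell (30.2%, median 0.45 against -0.16), with Faap24 (0.94), Hus1 (0.91) and Fancg (0.83) in front. At the other boundaries the share called in either direction was nearer to the background or under it. Into E11.5-E13.5, 2 rose and 1 fell (Rad9a, -0.89), with a median of 0.09 against 0.00. Into E14.5-E16.5, 3 rose and 18 fell (48.8%, median -0.46 against 0.52). The share that fell was 41.9%, against 16.4% of all genes, and the largest changes were those of Rad51ap1 and Wee1 (both -1.75) and Swsap1 (-1.56). Into PND10-PND14, 1 rose and 2 fell (median -0.03 against 0.08), namely Slx4 (0.88), Fancb (-1.88) and Rad9a (-1.07). Into PND30-adult, 8 rose and 24 fell (74.4%, median -0.67 against 0.09). The share that fell was 55.8%, against 30.2% of all genes, and the largest changes were those of Fance (-2.88), Fancb (-2.87) and Clspn (-2.83). The 8 cell cycle genes moved across the same boundaries, with a median sum of 2712 CPM at E11.5-E13.5, 912 at E14.5-E16.5, 646 at E17.5-PND0, 1572 at PND1-PND3 and 2134 at PND4-PND8, and their part was not tested.

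Over the 53 pools the 10 genes did not form 1 block. Of their 45 pairs, 34 had a positive Pearson r of log2(CPM + 1), with a median of 0.17. The highest was Helq with Fancm (0.72) and the lowest Rad51c with Xrcc2 (-0.63). These values describe pools that share libraries and developmental time, and carry no test. Set beside the summed cell cycle genes, r was 0.57 for Fancm, 0.47 for Helq, 0.42 for Xrcc2 and 0.40 for Fanca, but -0.54 for Rad51c and -0.49 for Atr.

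Among 11068 genes with a mean of at least 10 CPM, the 5 most like Helq over these pools were Parp12 (r = 0.81), Tbk1 (0.81), Zdhhc13 (0.80), Eef1akmt2 (0.77) and Slc35b2 (0.76). Of the protein-coding neighbours on chromosome 5, Coq2 at 87005 bp followed Helq most closely (r = 0.71, place 46 among those genes). Mrps18c, whose start is 29 bp away, reached 0.55, Abraxas1 at 6594 bp reached 0.46, and Hpse at 42429 bp, with a mean of only 4.80 CPM, gave -0.39.

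Germ cells and the reporter-negative gonadal cells of the same gonads were compared next, over 16 pairs of wild-type pools from E11.5 to E18.5. Negative pools were shallower, with 22 to 48 cells and 2457656 to 14846785 UMIs each. BVSC pools held 66 to 96 cells and 20701229 to 32104931 UMIs. Rad51c, Fancd2, Fanca and Atr were higher in germ cells, and Helq was present in both gates. The 4 genes were 4 of 10 called, all higher in BVSC cells, where 56.3% of 23322 genes were called and 36.9% were higher (edgeR, with the pair in the fit). Rad51c held a median of 101.98 CPM in BVSC pools (58.2 to 249) and 16.1 CPM in Negative pools (9.38 to 48.7), and the gates did not overlap. Its log2 fold change was 2.37 (SE 0.18, edgeR adjusted p = 1.73e-09). Fancd2 held a median of 41.6 CPM (9.27 to 86.8) against 6.58 CPM (0.407 to 19.8), a log2 fold change of 2.26 (SE 0.37, edgeR adjusted p = 2.8e-05). The Negative pools held only 1 to 198 UMIs of Fancd2 and 0 to 91 UMIs of Fanca. Fanca held 13.02 CPM (5.85 to 15.3) against 3.51 CPM, with a highest Negative value of 9.05 CPM and 1 Negative pool (E12.5 replicate 2) at 0 UMIs, which allows up to 0.868 CPM. Its log2 fold change was 1.95 (SE 0.49, edgeR adjusted p = 0.00214). Atr held 61.8 CPM (40.98 to 123.8) against 26.1 CPM (6.92 to 68.7), a log2 fold change of 1.41 (SE 0.27, edgeR adjusted p = 0.000168). Each of the 4 was higher in BVSC cells in 16 of 16 pairs, though the ranges overlapped for all but Rad51c. Without the pools numbered replicate 2, Fanca (1.78, edgeR adjusted p = 0.0647) and Atr (0.96, edgeR adjusted p = 0.0833) did not pass. The median log2 fold change over all genes was 0.68 with TMM and 0.83 with DESeq2 size factors, so the differences of Helq and the other genes under 0.68 lay below that of the median gene.

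Helq held a median of 22.7 CPM in BVSC pools (15.1 to 27.7) and 14.2 CPM in Negative pools (4.92 to 29.1). It was higher in BVSC cells in 12 of 16 pairs, and the difference of 0.51 (95% interval -0.01 to 1.04) did not pass (edgeR adjusted p = 0.0874). It passed without the pair of E17.5 replicate 1 (0.67, edgeR adjusted p = 0.0264) with DESeq2 size factors (0.66, edgeR adjusted p = 0.0239) and with DESeq2 (0.64, DESeq2 adjusted p = 0.00485). For the other 5 genes the log2 differences were 0.56 for Xrcc2 (-0.26 to 1.38), 0.26 for Fancm (-0.23 to 0.74), 0.25 for Polq (-0.52 to 1.03), 0.23 for Xrcc3 (-0.29 to 0.75) and 0.05 for Rad51d (-0.51 to 0.61), none of them passing. Neither gate was pure. The 12 germ markers summed to 64.4 to 604 CPM in Negative pools against 1832 to 4205 CPM in BVSC pools. The Sertoli markers summed to 10.4 to 369.7 CPM in BVSC pools and 153.2 to 1649 CPM in Negative pools, and the interstitial and peritubular markers to 1.3 to 379 CPM and 312.4 to 4035 CPM, with E17.5 replicate 1 the highest BVSC pool in both. The 8 cell cycle genes had a median sum of 2224 CPM in Negative pools and 1449 CPM in BVSC pools. The part of these markers in the differences was not tested. Of the 43 pathway genes, 21 were higher and 2 lower in BVSC cells, a share of 53.5% near the background and a median of 0.62 against 0.68 over all genes, with Fanci (2.09), Swsap1 (1.97) and Fancb (1.94) in front.

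**Figure D2:**
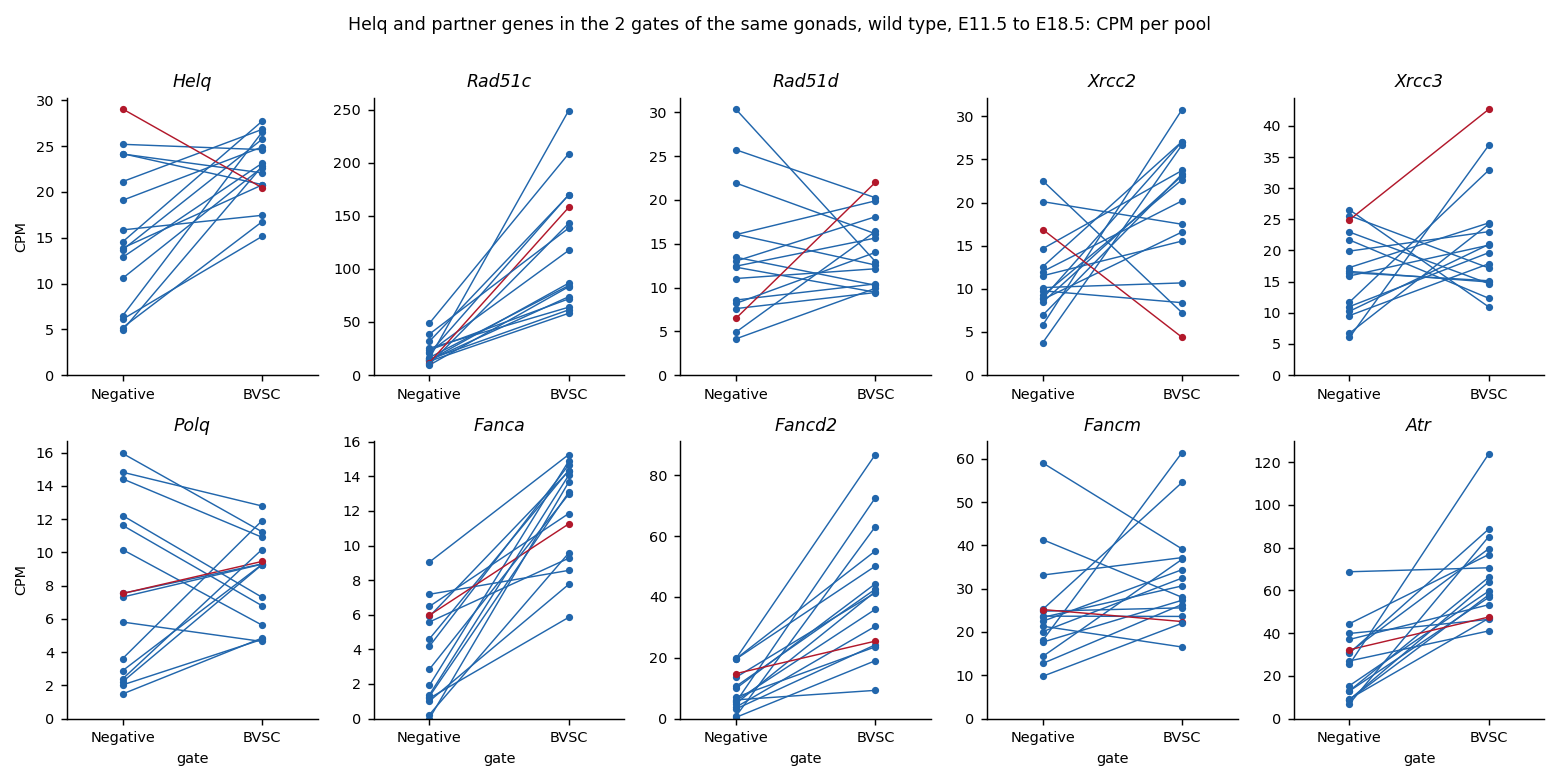
CPM (y axis, linear, from 0) of the 10 genes in the Negative and BVSC gates (x axis) of the same wild-type gonads, E11.5 to E18.5. Each line joins the pools of 1 time-point and replicate (16 pairs), and the pair of E17.5 replicate 1 is red. All 16 lines rise from Negative to BVSC for Rad51c, Fancd2, Fanca and Atr, and 12 of 16 rise for Helq.

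At PND30 cells sorted by DNA content were compared, 4N cells, which have copied their DNA and include cells in meiosis, against 1N cells, the haploid spermatids. Helq and most of its partners were higher in 4N cells. Helq held 1.41 and 2.86 CPM in 1N cells, 4.22 and 12.1 CPM in 2N cells and 14.2 and 13.8 CPM in 4N cells (replicates 1 and 2), and its log2 fold change from 1N to 4N was 2.67 (SE 0.55, edgeR adjusted p = 1.61e-05). Over the 10 genes 7 were called, all higher in 4N cells, against 40.7% of 20269 genes called and 17.1% called higher. Polq (0.922 and 1.19 CPM in 1N, 7.59 and 13.6 CPM in 4N) changed by 3.04, Fancm (1.32 and 0.892 against 10.3 and 7.80 CPM) by 2.81 and Xrcc3 (2.75 and 2.08 against 14.4 and 15.2 CPM) by 2.40. Atr (40.9 and 26.3 against 144.2 and 198 CPM) changed by 2.09. The edgeR adjusted p-values of these 4 genes ran from 1.27e-07 (Atr) to 6.58e-05 (Fancm), and in each of them both 4N values were above both 1N values.

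Fancd2 and Xrcc2 were nearer the threshold. Fancd2 held 15.2 and 8.39 CPM in 1N cells and 24.9 and 34.7 CPM in 4N cells (log2 fold change 1.15, edgeR adjusted p = 0.025). Xrcc2 held 20.9 and 21.9 CPM against 45.7 and 50.5 CPM (0.97, edgeR adjusted p = 0.0403). Without the replicate in the fit neither passed (edgeR adjusted p = 0.0618 and 0.0713), and without the filter on low counts Xrcc2 did not (edgeR adjusted p = 0.0541). The 3 genes not called were Rad51c (0.69, 95% interval -0.09 to 1.48), Rad51d (0.39, -0.50 to 1.29) and Fanca (0.97, -0.90 to 2.85). Markers followed the sort: Prm1 of spermatids had a mean of 1556 CPM in 1N, 717 in 2N and 233 in 4N cells, and Piwil1 of spermatocytes 37.4, 132.2 and 299 CPM. Of 42 pathway genes tested, 19 were higher and 4 lower in 4N cells (54.8% called, median log2 fold change 1.00 against -0.17 over all genes). The largest changes were Rad1 (2.94) and Topbp1 (2.79), both of which help to activate ATR, and Dmc1, the meiotic recombinase, which was lower in 4N cells (-2.63). With 2 replicates per sort, p-values rest on the spread shared over all genes.

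**Figure D3:**
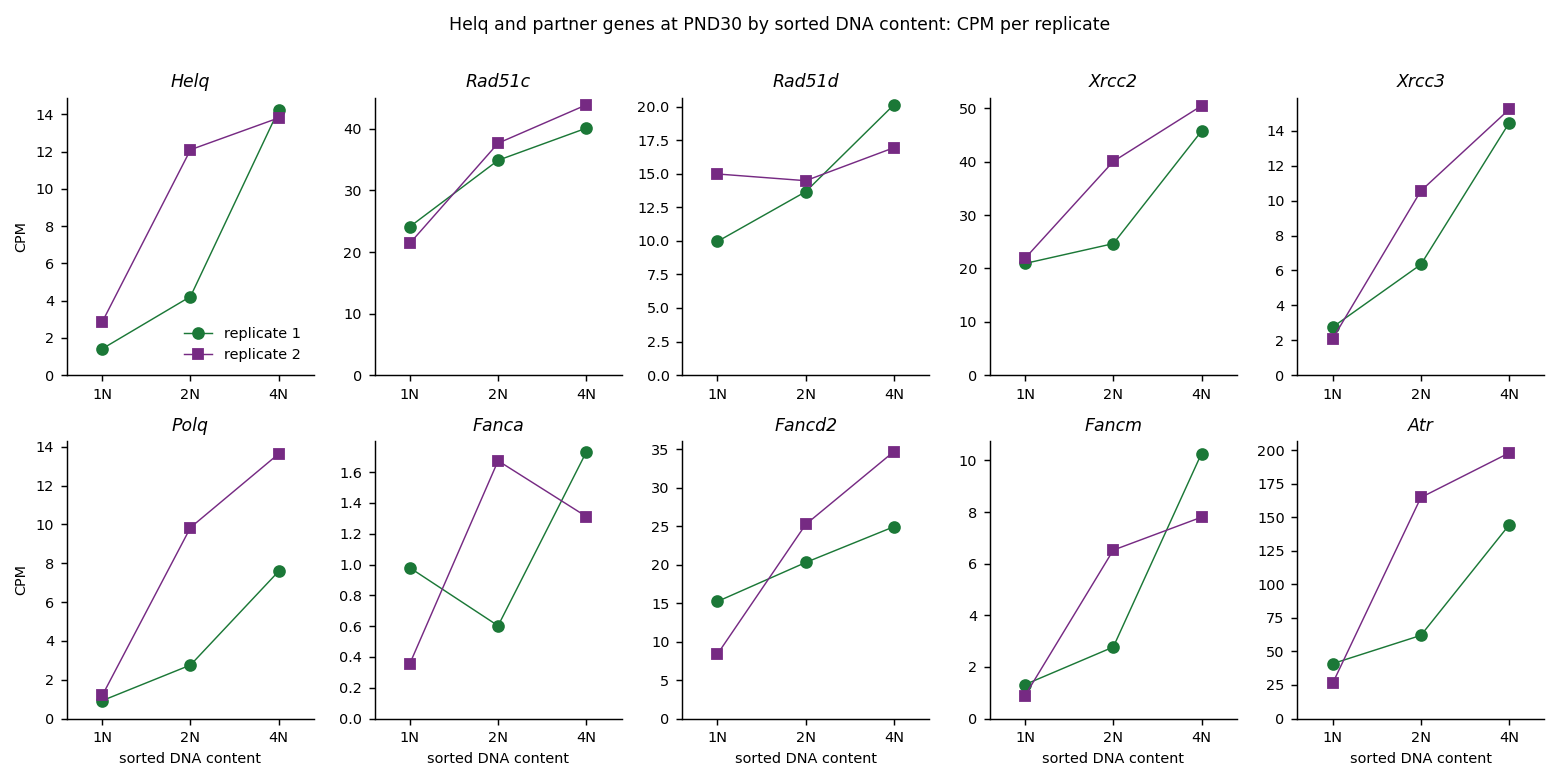
CPM (y axis, linear, from 0) of the 10 genes at PND30 in cells sorted as 1N, 2N and 4N (x axis). Each line is 1 of the 2 replicates, as marked in the legend. Helq rises from 1.41 and 2.86 CPM in 1N to 14.2 and 13.8 CPM in 4N cells, and the 2N values lie between or near these.

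No difference between the distal and the proximal part of the gonad was detected for the 10 genes. From E13.5 to E16.5 germ cells of the distal part (D, away from the mesonephros) were set against those of the proximal part (P) of the same gonads, 8 pools each. With edgeR 0 of 10 genes and 0 of 19487 genes were called (0%). At an unadjusted p under 0.05 there were 0 of the 10 and 3.56% of all genes, and DESeq2 called 13 genes and none of the 10. Helq held a mean of 21.1 ± 4.85 CPM in D and 21.02 ± 6.27 CPM in P (n = 8 each), a log2 difference of 0.08 (95% interval -0.40 to 0.56). Polq had the widest difference, 8.12 ± 2.17 against 11.6 ± 4.53 CPM (-0.44, -1.07 to 0.18), and all adjusted p-values were 0.999. Of the 43 pathway genes, 0 were called. The central part (C) was not tested against the others. Xrcc2 held 22.5 and 22.8 CPM there at E16.5, 12.08 and 13.3 CPM in D and 11.09 and 13.2 CPM in P, and at E13.5 its central values (25.6 and 18.3 CPM) lay on both sides of the other parts (22.2 to 25.2 CPM).

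The last comparison asked whether loss of Helq moved the partner genes, with null and wild-type BVSC cells set against each other within time-point. Helq itself comes first. Null pools held 26.8 CPM at E11.5, 39.6 at E12.5, 23.7 and 17.1 at E13.5, 15.9 and 18.1 at E14.5, 23.5 and 21.01 at E15.5, and 26.9 at E18.5. Wild-type pools held 26.8 and 24.6 CPM, 26.5 and 22.8, 25.8 and 20.8, 22.1 and 27.7, 17.4 and 20.8, and 22.7 and 15.1 at the same time-points. The genotypes overlapped, with 4 null pools above both and 3 below both wild-type pools of their time-point, and the log2 fold change was 0.06 (95% interval -0.29 to 0.41, edgeR adjusted p = 0.952). As said above, the 3′ count lies far from the deletion and does not test it.

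None of the 10 genes passed in this comparison, where 156 of 21575 genes were called by edgeR (0.723%). DESeq2 called none of them either, among 531 genes. At an unadjusted p under 0.05 there were 4 of the 10, Fanca, Polq, Atr and Rad51c, and 2256 of the 21575 genes. Fanca held a median of 6.83 CPM in null pools (3.57 to 15.6, n = 9) and 13.4 CPM in wild-type pools (7.75 to 15.3, n = 12). It was below both wild-type pools of its time-point in 7 of 9 null pools, and its log2 fold change was -0.64 (95% interval -1.16 to -0.13, edgeR adjusted p = 0.329). Polq held 12.1 CPM (7.39 to 22.6) against 8.28 CPM (4.64 to 12.8) and was above both wild-type pools in 8 of 9 null pools (0.59, 0.10 to 1.07, edgeR adjusted p = 0.356). Atr held 85.4 CPM (39.9 to 148) against 64.99 CPM (40.98 to 88.6) and was above both in 6 of 9 (0.38, 0.04 to 0.71, edgeR adjusted p = 0.396). Rad51c held 78.1 CPM (60.9 to 105.7) against 83.7 CPM (58.2 to 169) and was below both in 7 of 9 (-0.24, -0.47 to -0.01, edgeR adjusted p = 0.449). These 4 intervals leave out 0 only before adjustment over all genes. The share of all genes that lay above or below both wild-type pools this often was not counted.

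The other 5 partners had intervals that spanned 0. They were -0.25 (-0.66 to 0.16) for Xrcc3, 0.27 (-0.10 to 0.64) for Fancm, 0.17 (-0.17 to 0.52) for Xrcc2, -0.12 (-0.42 to 0.18) for Fancd2 and -0.07 (-0.46 to 0.32) for Rad51d. For Helq, Rad51c, Rad51d, Xrcc2 and Fancd2 the intervals held no change of 1.5-fold in either direction, whereas for Polq and Fanca they reached 2-fold. Of the 43 pathway genes, 0 were called, the smallest adjusted p being 0.266.

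Time-points were then taken singly. E11.5, E12.5 and E18.5 each had 1 null pool, assumed to vary like the others. None of the 10 genes was called by edgeR at any time-point, against 0.0323% of 24787 genes at E11.5, 0.0726% at E12.5, 0.0645% at E13.5, 0.161% at E14.5, 0.678% at E15.5 and 0.0282% at E18.5. At an unadjusted p under 0.05 there were 0 or 1 of the 10 at each, and 4.17% to 11.9% of all genes. The difference between time-points itself, tested as an interaction, was called for 0.0403% of genes and for 0 of the 10 (smallest edgeR adjusted p = 0.933). At E15.5, where 168 genes were called (0.678%), Rad51c held 74.8 and 92.5 CPM in null pools and 169 and 117.4 CPM in wild-type pools (log2 fold change -0.69, 95% interval -1.18 to -0.19, edgeR adjusted p = 0.207). Xrcc3 held 10.9 and 17.6 CPM against 36.9 and 20.9 CPM (-0.92, -1.87 to 0.03, edgeR adjusted p = 0.439), and Fancd2 53.3 and 57.2 CPM against 86.8 and 72.6 CPM (-0.44, -1.14 to 0.26, edgeR adjusted p = 0.628). The null pools lay below the wild-type pools without overlap for 4 genes, these 3 and Fanca (-0.71, edgeR adjusted p = 0.661). They lay above without overlap for 4 others: Polq (0.83, edgeR adjusted p = 0.592), Fancm (0.62, edgeR adjusted p = 0.524), Xrcc2 (0.50, edgeR adjusted p = 0.613) and Helq (0.29, edgeR adjusted p = 0.81). At E14.5, 4 of the 10 genes lay below and 2 above without overlap, and at E13.5 0 and 2. With 1 null pool each, these counts were 8 and 0 at E11.5, 2 and 5 at E12.5, and 4 and 5 at E18.5. The share over all genes was not counted, so no result is read from these counts. The 8 cell cycle genes summed to 1528 and 1700 CPM in the null pools of E15.5 and to 862 and 958 CPM in the wild-type pools, and their part in these values was not tested.

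**Figure D4:**
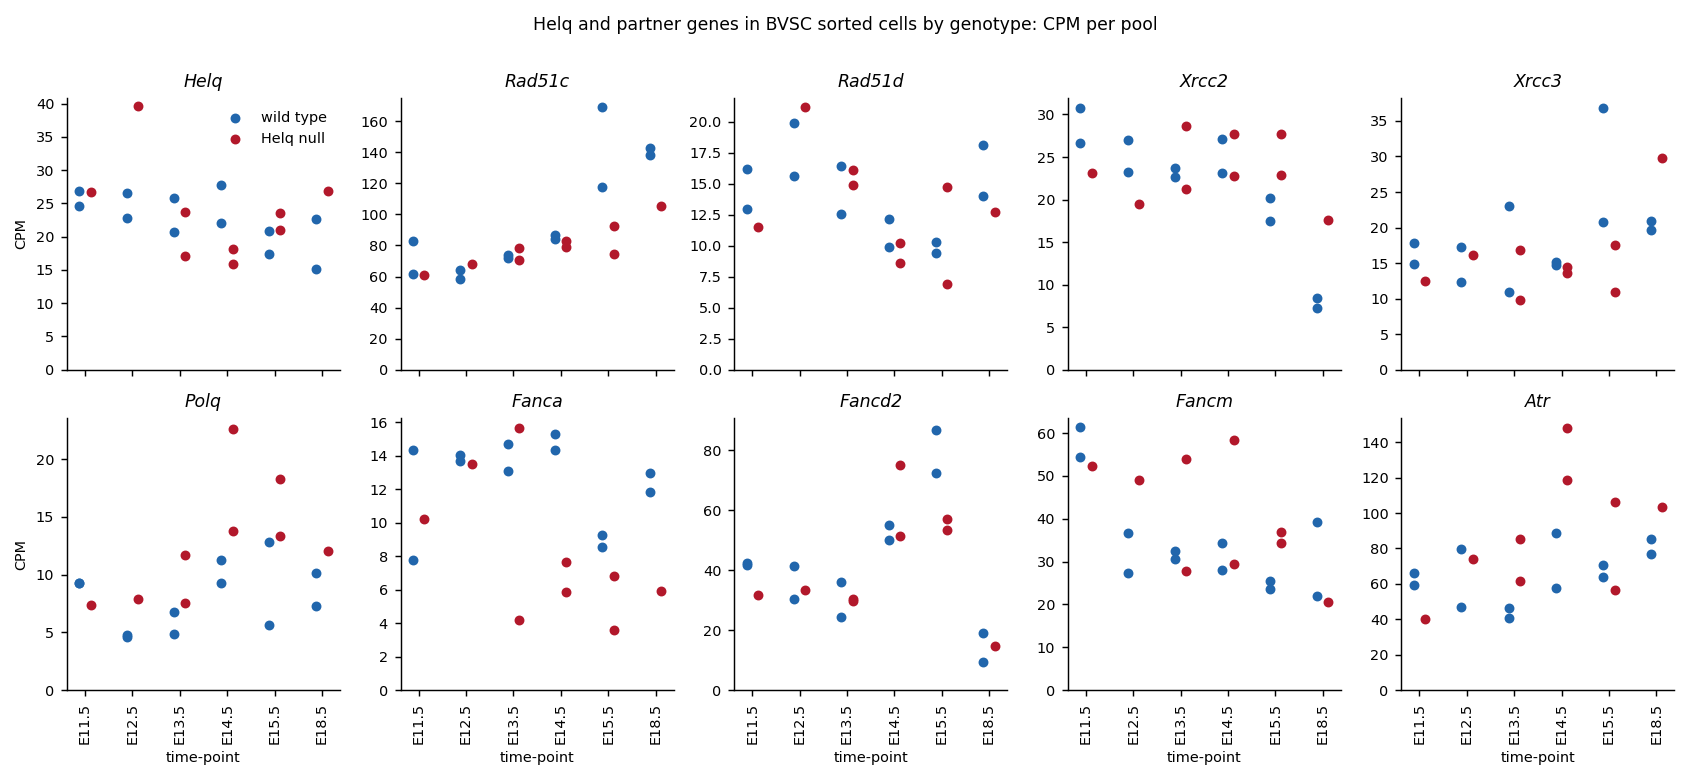
CPM (y axis, linear, from 0) of the 10 genes in BVSC cells by time-point (x axis), wild type in blue (12 pools) and Helq null in red (9 pools), 1 point per pool. The genotypes overlap for Helq, red points lie mostly below blue for Fanca and mostly above for Polq, and at E15.5 the red points of Rad51c (74.8 and 92.5 CPM) lie below the blue (169 and 117.4 CPM).

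**Figure D5:**
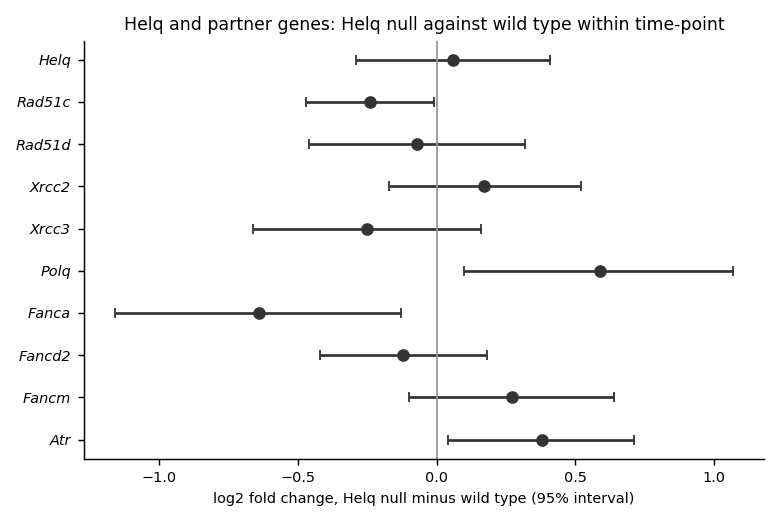
Log2 fold change of Helq null against wild type within time-point (x axis) for the 10 genes (y axis), with 95% intervals before adjustment for multiple tests. Fanca lies lowest at -0.64 and Polq highest at 0.59, and no gene passed after adjustment.

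Library names differed between the genotypes in part. The null pools of E13.5 replicate 2, E14.5 replicate 1, E15.5 replicate 2 and E18.5 replicate 1 came from libraries whose names begin as those of no wild-type pool of the same time-point. That of E14.5 replicate 1 held the highest null values of Atr (148.1 CPM) and Fancm (58.3 CPM). With the start of the library name as a further covariate 70 genes were called, and with only the libraries of the most common name 40 genes, and in both fits 0 of the 10.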

How the data were processed

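The authors deposited a table of UMI counts per gene and cell, and a table of cells. The submitters' processing notes name CASAVA 1.8. Per the study's methods, UMIs were handled with UMI-tools, reads were aligned with STAR to mm10, and genes were counted with featureCounts of Subread. Conditions came from the table of cells, since the labels of the 147 libraries give library names alone. Of its 13032 cells 11360 were used, and 1672 columns of per-cell counts (E6.5 and E7.5) were not used. Cells with over 2000 genes and 10000 to 1000000 UMIs were kept (11066). No doublet caller was run, and the 96 cell barcodes recur in each library. Germ cells were those with more UMIs of 12 germ than of 25 somatic markers and, before birth, the BVSC gate: 8458 of 9368 wild-type cells, 167 of them near the border of the rule, while 13 of 572 Negative cells met the marker part. Genotype and gate pools took all cells of the gate.

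UMIs were summed per pool of at least 10 cells and tested with edgeR 4.0.16 (R 4.3.3): TMM, filterByExpr, robust quasi-likelihood fit, two-sided, Benjamini-Hochberg over all genes kept, called at an adjusted p under 0.05. Covariates were the time-point (genotype), the pool (gate and position, where the same gonads gave both sides) and the replicate (ploidy). The SE is the absolute log2 fold change divided by the square root of F. Scripts were tested on simulated counts in which 200 genes, drawn at any level of expression, were changed. The genotype fit called 41.5% of the 2-fold and 55.7% of the 4-fold changes. The fit of stages, read into E14.5-E16.5, called 12.2% and 38.8%. Changes of this size can therefore go uncalled. The shares are over genes of all levels, and the stage fit called far more genes than were changed here. They are not the shares for the 10 genes. Of the alternatives, DESeq2 1.42.0, its size factors, other filters and omitted pools were tried. All 10 genes are named in each comparison, with stage values where a gene passed and moved at least 2-fold, and the 3 largest called changes of the pathway list, of which 1 gene is not reported here. The genes, lists and stages were chosen with earlier results of these data known.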

Additional observations from a re-analysis of the deposited data

Results flagged for a closer look

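Within groups of 4 to 10 pools, 1 pool stood apart from the others (a gap test at the 95% level, which chance meets in about 1 in 20 groups) in 12 of 120 groups of pools and genes. Adult replicate 1 accounted for 5 of them, with 43.1 CPM of Helq (next highest pool of PND30 to adult 18.7), 30.2 CPM of Rad51d (19.5), 24.5 CPM of Polq (11.3), 14.6 CPM of Fanca (2.28) and 35.2 CPM of Fancm (12.2). Its somatic and cell cycle markers were also high, as given above, and their part was not tested.

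Among embryonic pools, Xrcc2 was low in E8.5 replicate 2 (16.8 CPM, next lowest 24.5) and Fanca was low in E11.5 replicate 2 (7.75 CPM, next 13.2). Among null pools, Helq was high in E12.5 replicate 1 (39.6 CPM, next 26.9) and Xrcc3 in E18.5 replicate 1 (29.8 CPM, next 17.6). By part of the gonad, Xrcc2 was high in the central part of E14.5 replicate 2 (35.4 CPM, next 25.6), Xrcc3 in the proximal part of E15.5 replicate 1 (39.1 CPM, next 19.8) and Fanca in the central part of E16.5 replicate 2 (28.3 CPM, next 14.1).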

How the results depend on the processing

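Of the alternatives for single genes, 581 kept direction and side of the threshold, 8 lost a call, 3 gained one and 12 turned sign. For the stages this tally holds only the changes of at least 2-fold and leaves out the weaker calls. Of all 23 stage calls on the 10 genes, 7 did not pass with DESeq2 size factors. Among the counts of genes called, 18 moved by more than 1.5 times. Null against wild type gave 156 genes, 531 with DESeq2, 240 with limma on means of cells, 70 with library names as covariate and 40 in the most common libraries, and 26 (without replicate 2) to 192 over the fits leaving out replicates or pools, with 0 of the 10 genes called throughout. Signs of uncalled genes turned without replicate 1, and over the fits leaving out replicates or pools the values ran from -0.35 to 0.13 for Helq, -0.11 to 0.30 for Xrcc2, -0.21 to 0.13 for Fancd2 and -0.18 to 0.12 for Rad51d. Without the E12.5 null pool Helq stood at -0.05. Same-numbered null and wild-type pools deviated in opposite directions (r = -0.40 at E13.5, -0.439 at E14.5, -0.244 at E15.5). With 2 pools per genotype each time-point gives a single r, so this cannot decide whether the numbers pair anything. With the replicate block 68 genes were called and Helq stood at -0.05.

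Summed over the 7 stage contrasts, 50611 genes and 23 values of the 10 genes were called, against 28269 and 12 without replicate 1, 15458 and 5 without replicate 2, 58063 and 27 without adult replicate 1, and 32709 and 14 in the most common libraries. Without replicate 2, PND4-PND8 gave 0 genes and PND10-PND14 1 gene. With a mean per time-point in place of a mean per stage, 10881 genes were called into E17.5-PND0 against 6568, and 8328 into PND1-PND3 against 5015. Of the 10 genes, 4 were then called against 3, and 5 against 4. Into E14.5-E16.5 that fit called 10871 genes against 11926, and 5 of the 10 genes in both. The gate gave 13134 genes, against 7353 and 7360 without replicate 1 or 2, 12769 without the pair of E17.5 replicate 1, and 2 of the 10 genes without replicate 2, and without the pairing of gates (no replicate block) Rad51d stood at -0.02. Position gave 13 genes with DESeq2 and 10 without the filter on low counts. Without replicate 1 and then replicate 2, uncalled values there stood at -0.16 and 0.30 for Helq, -0.23 and 0.38 for Rad51d, -0.13 and 0.16 for Rad51c, -0.03 and 0.24 for Xrcc3, and -0.21 and 0.00 for Fancd2. The test of 4N against 1N was not run without a replicate, since no residual degrees of freedom would remain. Fewer pools enter the fits without replicates and in the most common libraries, and for the other changes the cause was not tested. Depth limits Fanca most, with 19 UMIs in its thinnest germ cell pool.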
